A study of Sus scrofa with 20 samples.

Results

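The genes described here carry out fatty acid activation, mitochondrial and peroxisomal beta-oxidation, and the assembly of peroxisomes, in pig backfat. They were chosen by name alone, as the loci of the deposited count table that map to a single pig gene symbol beginning with one of 16 prefixes: ACSL, ACSM, ACAD, ACOX, ACOT, ACAA, ACAT, CPT1, CPT2, HADH, ECH, ECI, ETF, DECR, CRAT and PEX. The rule found 55 of 23483 loci, for 52 symbols. ACSM3, CPT2 and HADH had 2 loci each, told apart below by locus identifier, and the loci of ACOT6 and CPT1B spanned 2 gene identifiers each. A further 2 loci were left out because each joins a gene of these families to an unrelated neighbour (CPT1C with PRMT1, and PEX11A with PLIN1). ETF1, a factor that ends translation, was caught by the ETF prefix. It has no place in the 8 roles of the other 54 loci, but it is counted among the 55 members throughout.

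Backfat, the subcutaneous fat along the back, came from 10 female and 10 castrated male Italian Large White pigs, with 1 library of polyadenylated RNA per animal. All 20 animals shared 1 environment and 1 diet, weighed 150 to 160 kg, and were sampled at a commercial slaughterhouse, where the tissue was frozen in liquid nitrogen. Ages ran from 235 to 250 days in females and from 233 to 249 days in castrated males. The design has no intact males, so sex and castration cannot be told apart, and whole tissue was used, so fewer cells of a type and less RNA per cell cannot be told apart either.

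Library totals ran from 25754778 to 51248122 counts, so that 1 CPM (counts scaled to the library total) stood for 25.8 to 51.2 counts, and the genes described here took 0.501 to 0.816% of each library. The markers for adipocytes were high, with SCD at 15670 ± 7717 CPM and PPARG at 303 ± 72.3 CPM (SD, n = 20). Castrated male 1 stood apart from the other libraries, with the lowest SCD (253.2 CPM), PPARG (148.7 CPM) and CIDEC (215.7 CPM) and the highest macrophage marker sum. The other adipocyte markers were not at their lowest there, with PNPLA2 at 594.9 CPM against a median of 597.2 CPM and LIPE at 438.4 CPM against 638.6 CPM. The libraries labelled female 10 and castrated male 10 went against their labels at XLOC_042132, a locus without a gene identifier that separates the other animals. It ran from 547 to 1233 CPM in the other 9 females and from 0 to 1.87 CPM in the other 9 castrated males, but the library labelled female 10 had 0.409 CPM and the library labelled castrated male 10 had 989 CPM. Counts of members called, and the values that these 3 libraries move most, are given below with and without them.

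Before a fatty acid can be burned it is joined to coenzyme A by an acyl-CoA synthetase, handed to carnitine for passage into the mitochondrion, and shortened by repeated rounds of dehydrogenation, hydration, oxidation and thiolysis. The acyl-CoA dehydrogenases pass their electrons through the electron transfer flavoprotein to the respiratory chain. Peroxisomes, built and filled by the PEX proteins, run a parallel route that starts with an acyl-CoA oxidase and takes very long and branched chains. White fat cells mainly store fatty acids and release them, and acyl-CoA made by the same synthetases also feeds triglyceride synthesis there.

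Roles were set by symbol prefix, not by the reaction of each product. HADHB and the decarboxylase ECHDC1 are thus counted under hydration, oxidation and isomerisation. Per unit of transcript length, the thiolases and the hydration and oxidation enzymes were the most abundant roles. Levels in FPKM, the deposited measure per transcript length, had a median of 140 over the 4 thiolase loci, 71.0 over the 11 loci for hydration, oxidation and isomerisation, and 52.0 over the 10 loci for dehydrogenases and electron transfer. The medians were 19.4 for the 3 peroxisomal oxidases, 19.3 for the 5 carnitine shuttle loci, 19.1 for the 4 thioesterases, 16.7 for the 11 peroxins and 5.07 for the 6 activation loci. The thioesterase median depends in part on ACOT8, whose FPKM needs care, as given below. The median over the 54 members with a mean of at least 1 CPM was 33.0 FPKM, against 5.90 FPKM over all 15770 loci at that level. All 55 members passed the filter on low counts.

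HADH, the mitochondrial hydroxyacyl-CoA dehydrogenase of short and medium chains, was the highest member at 304 ± 75.2 FPKM in its main locus XLOC_032754 (SD, n = 20). ACAA1, the peroxisomal thiolase, followed at 201 ± 41.3 FPKM, and ACSL1, the main long-chain acyl-CoA synthetase of fat cells, at 199 ± 74.2 FPKM. ACAA1 and ACSL1, neighbours in this order, lay within 1 SD of each other. ETFB, a subunit of the electron transfer flavoprotein, averaged 184 ± 46.3 FPKM, ACAT1, the mitochondrial acetoacetyl-CoA thiolase, 142 ± 41.7 FPKM, and ETFA, the partner subunit of ETFB, 102 ± 26.1 FPKM. ECHDC2, an enoyl-CoA hydratase domain protein, stood at 120 ± 29.5 FPKM and ECHDC1, a decarboxylase that removes ethylmalonyl-CoA, at 96.9 ± 38.6 FPKM. In all, 8 of the 55 loci averaged at least 100 FPKM. ACAA2, the mitochondrial thiolase, was the remaining one of these 8 at 138 ± 28.2 FPKM. ETFDH, which hands electrons from the flavoprotein to ubiquinone, stood at 89.1 ± 15.3 FPKM. HADHA and HADHB, the alpha and beta subunits of the mitochondrial trifunctional protein, stood close together at 73.9 ± 12.5 and 65.7 ± 10.4 FPKM. The dehydrogenase and electron transfer loci spanned 0.376 to 184 FPKM, and the hydration, oxidation and isomerisation loci 3.94 to 304 FPKM.

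The carnitine shuttle loci had a lower median, 19.3 FPKM, than the thiolase, hydration and dehydrogenase roles. CRAT, which moves acetyl groups onto carnitine, was the highest of them at 78.8 ± 17.7 FPKM, above HADHA and HADHB. CPT1A, the liver form of the outer membrane palmitoyltransferase, averaged 48.8 ± 18.0 FPKM and CPT1B, the muscle form, 19.3 ± 3.74 FPKM, so both forms were present and the liver form was the more abundant per length. CPT2, the inner membrane enzyme, stood at 14.7 ± 2.66 FPKM in its main locus XLOC_028310 and at 1.23 ± 0.419 FPKM in XLOC_027370. The other long-chain synthetases were ACSL4, which prefers arachidonate, at 54.3 ± 12.6 FPKM and ACSL3, an enzyme of lipid droplets, at 8.33 ± 1.72 FPKM.

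Among peroxisomal genes ACOX2, an oxidase of branched chains, averaged 19.4 ± 4.42 FPKM. PEX19, the chaperone of peroxisomal membrane proteins, was the highest peroxin at 91.7 ± 17.6 FPKM, above its membrane receptor PEX3 at 43.9 ± 13.6 FPKM. PEX6, an ATPase that recycles the import receptor, stood at 6.65 ± 0.735 FPKM, and PEX2, a ring-finger protein of the import machinery, at 9.24 ± 1.86 FPKM. Outside this gene set, catalase (CAT), the peroxisomal enzyme that breaks down hydrogen peroxide, reached 1000 ± 233 FPKM, a gene named here after its value was seen.

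**Figure D1:**
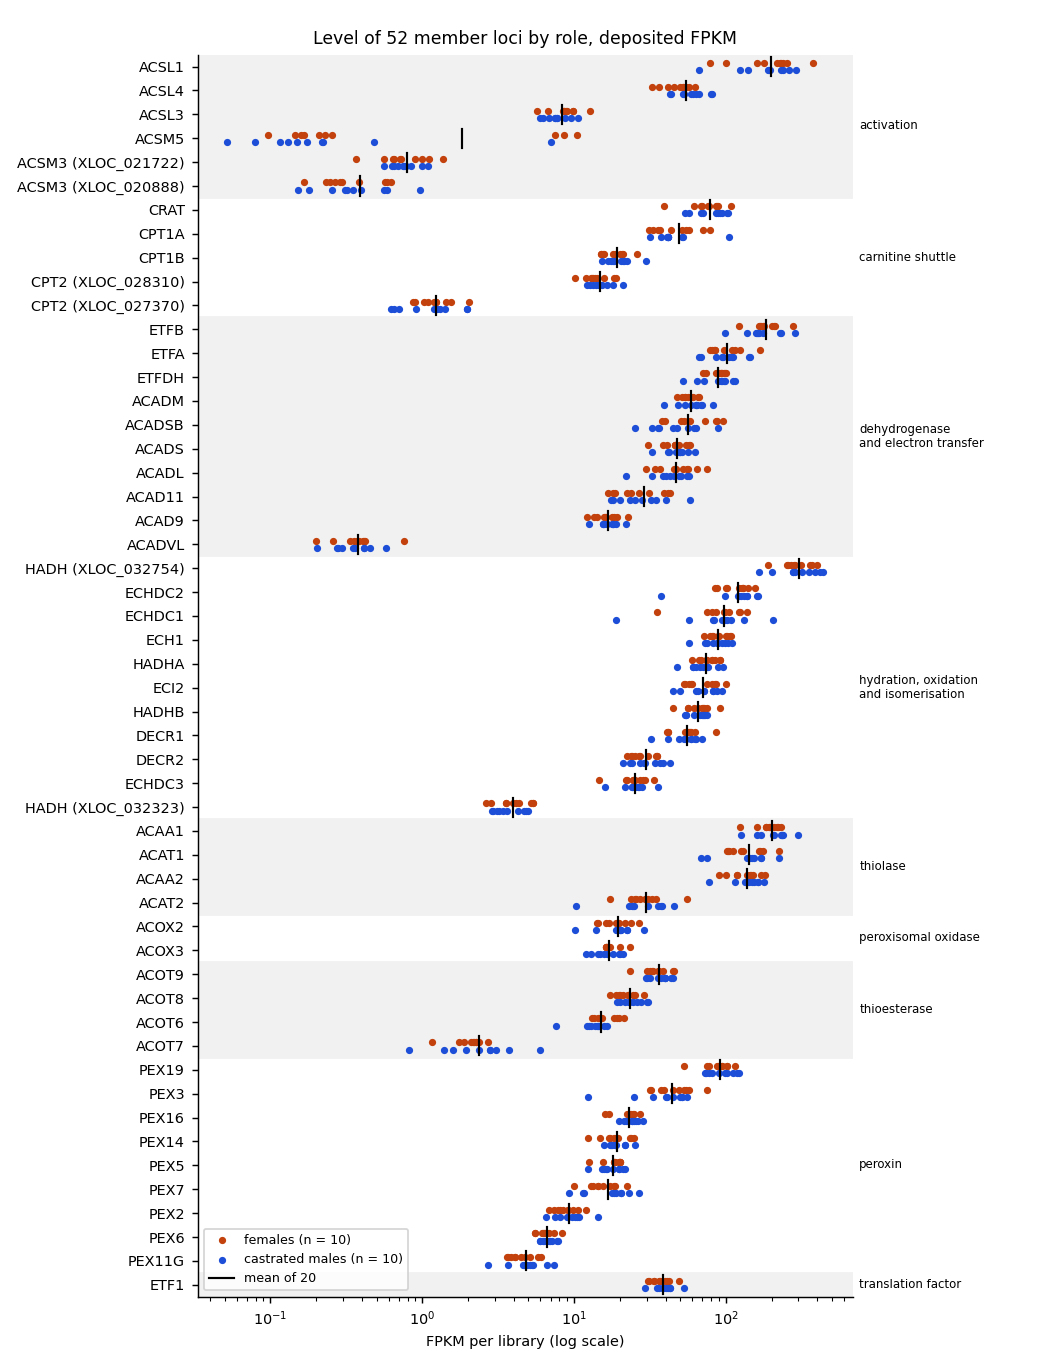
Deposited FPKM (log axis) of 52 of the 55 member loci, grouped by role and ordered by mean; each point is a library, females above castrated males, and the black bar is the mean of 20. HADH (XLOC_032754) is highest at 304 FPKM, the sexes overlap in every row, and the ACSM5 row splits into 4 libraries at the right and 16 at the left.

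ETF1, the translation factor caught by its name, stood at 38.6 ± 5.95 FPKM.

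Some levels need care. ACADVL, the very long chain acyl-CoA dehydrogenase, had the lowest locus of all, at 0.376 ± 0.125 FPKM and 16 to 54 counts per library, where the medium-chain enzyme ACADM stood at 59.2 ± 9.54 FPKM and the long-chain enzyme ACADL at 46.6 ± 12.6 FPKM. Whether the ACADVL locus covers the whole gene is not given in the sources used here, so its level may not be that of the gene. ACOT8, a peroxisomal thioesterase, averaged 23.3 ± 3.81 FPKM, yet its count was 27 to 121 per library, and its ratio of FPKM to CPM was 18.3, against a median of 0.391 over the members and 1.4 for the next highest. ACOT9, a mitochondrial thioesterase with 36.2 ± 6.01 FPKM, rested on 1070 to 2172 counts. For 33 of 55 members log2 CPM and log2 FPKM over the 20 libraries had a Pearson r above 0.9 (median 0.925), with ACAD11 lowest at 0.129, as a description across libraries that share their reads between the 2 measures.

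Animals differed from each other by about as much in these genes as in all loci with a mean of at least 1 CPM. The members stood higher, at a median of 33.0 against 5.90 FPKM, and the loci were not matched for level. The residual SD of log2 CPM, with the sex means removed, had a median of 0.340 over the 54 members with a mean of at least 1 CPM, against 0.351 over all 15770 such loci (0.311 and 0.341 without castrated male 1). The highest library exceeded the lowest by less than 3-fold for 39 of 55 members and by more than 5-fold for 5, and without castrated male 1 these numbers were 45 and 3. ACAD9, an acyl-CoA dehydrogenase that also assembles respiratory complex I, varied least, with an SD of 0.173. The 8 members of highest spread were ACSM5 (2.06), ECHDC1 (0.732), ACOT7 (0.641), ACSL1 (0.633), PEX3 (0.534), ACADSB (0.515), ACAT2 (0.504) and the minor CPT2 locus XLOC_027370 (0.484). Without castrated male 1 the values for ECHDC1 and PEX3 were 0.582 and 0.354.

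ACSM5, a medium-chain acyl-CoA synthetase of the mitochondrial matrix, stood apart from all other members. Its residual SD exceeded that of 99.7% of loci. It was at 38.0 CPM in female 4, 33.8 in female 6, 28.1 in female 8 and 25.8 in castrated male 9. In the other 16 libraries it lay between 0.303 CPM in castrated male 6 and 2.25 CPM in castrated male 5, so no library fell between 2.25 and 25.8 CPM. The 4 high libraries held 932 to 1393 counts of the gene and the others 13 to 84, and their deposited FPKM showed the same break, at 7.05 to 10.4 against 0.0521 to 0.483. The 4 high animals were 235 to 250 days old and of both labelled sexes. ACSM3, the related synthetase, showed no such break, from 2.39 CPM in female 2 to 8.62 CPM in female 1 in XLOC_021722 and from 0.973 to 3.41 CPM in XLOC_020888.

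ECHDC1 ran from 90.8 CPM through a median of 268 to 353 CPM in females, and from 65.2 through 247 to 597 CPM in castrated males. Female 9 and castrated male 1 were the low libraries and castrated male 4 the high one. ACSL1 had a lowest, median and highest value of 260, 657 and 1206 CPM in females and of 230, 654 and 885 CPM in castrated males. Female 2, female 9 and castrated male 1 were low for ACSL1, and female 4 and the library labelled female 10 high. CPT1A had a lowest, median and highest value of 76.8, 120 and 200 CPM in females and of 82.8, 105 and 256 CPM in castrated males. Castrated male 1, female 2 and female 9, the 3 lowest libraries for ACSL1 and for SCD, were the 3 highest for CPT1A.

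ACOT7, a cytosolic thioesterase best known from brain, was scarce, at 1.30, 3.13 and 3.89 CPM in females and 1.28, 3.65 and 8.21 CPM in castrated males for the lowest, median and highest library. ACADSB, the dehydrogenase of short branched chains, ran from 118 through 170 to 286 CPM in females and from 79.1 through 138 to 273 CPM in castrated males. ACAT2, the cytosolic acetoacetyl-CoA thiolase of sterol synthesis, ran from 12.6 through 23.1 to 43.0 CPM in females and from 9.45 through 21.5 to 35.4 CPM in castrated males. The groups overlapped for each of these genes.

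**Figure D2:**
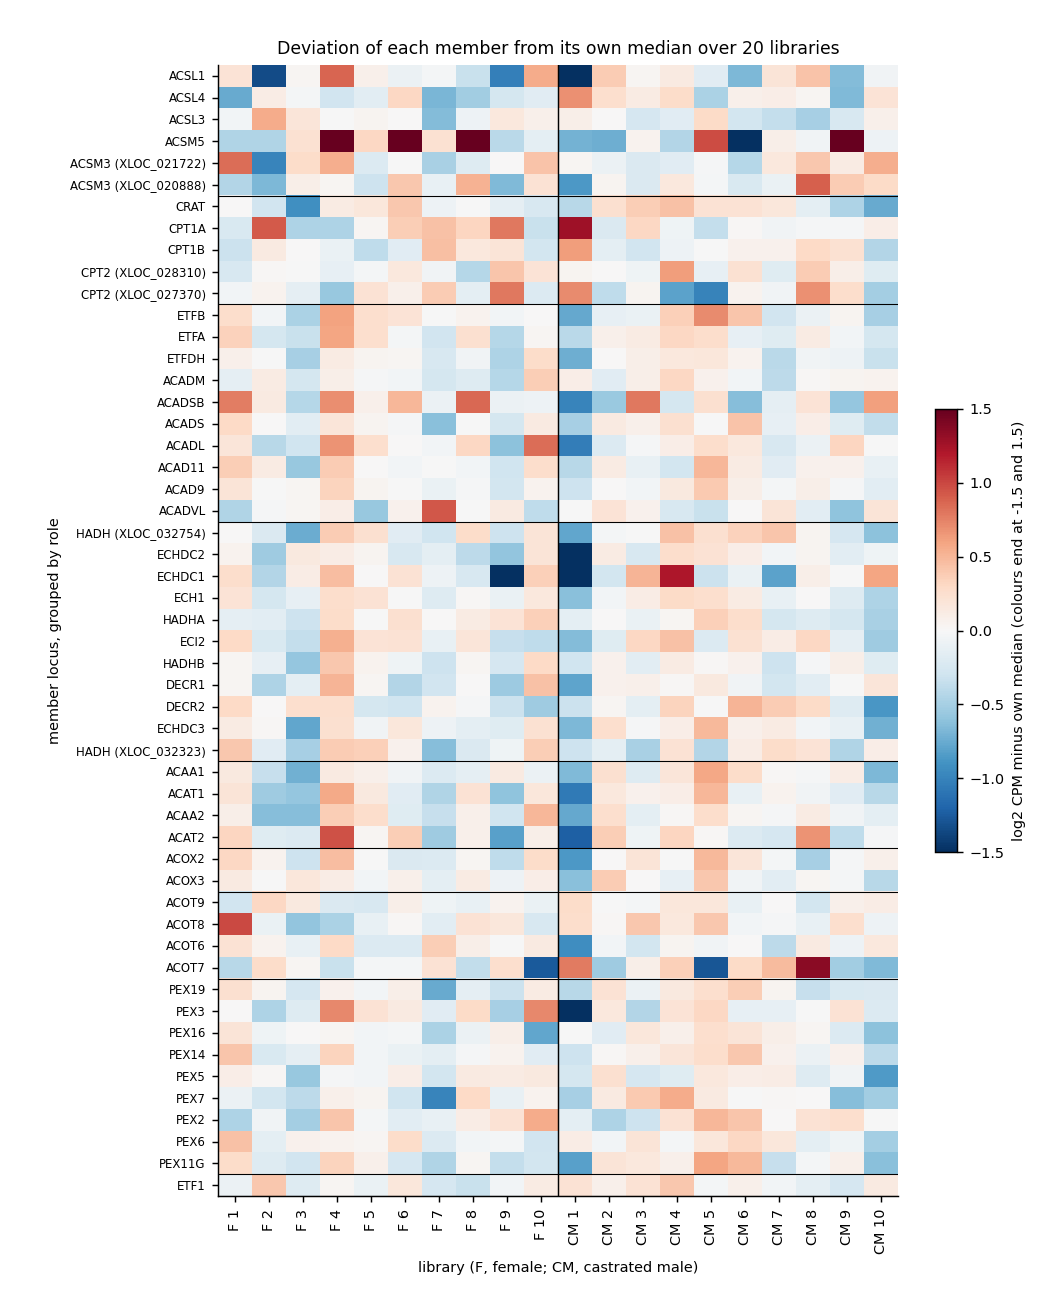
Log2 CPM of each of 52 members minus its own median over 20 libraries (red above, blue below; colours end at -1.5 and 1.5), females left and castrated males right, rows grouped by role. Castrated male 1 is blue through the dehydrogenase, hydration, thiolase and oxidase rows and red for CPT1A, and ACSM5 is dark red in 4 libraries.

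Castrated male 1 set the low end of much of the pathway. It was the lowest of 20 libraries for 21 of 55 members (38.2%), against 10.9% of all loci, and the median deviation of a member from its own median there was -0.41 log2 units. All 11 hydration, oxidation and isomerisation loci were below their own medians (median deviation -0.66), as were all 4 thiolases (-0.91), all 3 oxidases (-0.62), 9 of 10 dehydrogenase and electron transfer loci (-0.45) and 10 of 11 peroxins (-0.26). The carnitine shuttle ran the other way, with 1 of 5 loci below its median and a median deviation of 0.62. Within it CRAT was at -0.42 and the main CPT2 locus XLOC_028310 was near its median, at 0.04. Thioesterases were mixed, with ACOT7 (0.78), ACOT9 (0.28) and ACOT8 (0.26) above their medians and ACOT6 (-0.93) below. CPT1A (256 CPM), ACSL4 (264 CPM) and CPT1B (83.4 CPM) were at their highest there. The 7 macrophage markers with a locus summed to 995 CPM in this library, against 73.7 to 372 CPM in females and a median of 242 CPM in castrated males. Of these 7 markers 6 were at their highest there. The T and NK cell marker sum ranked 2 of 20 from the top, at 166.4 CPM. Of its 8 genes 5 were at their highest there, but CD247 (56.26 CPM, median 81.6) was below its median. The 4 adipocyte markers other than SCD summed to 1398 CPM, against 1522 to 2926 CPM in females and at least 1449 CPM in the other castrated males, so this sum was only just the lowest. The fibroblast sum was the lowest of 20 at 8611 CPM, with 4 of 7 genes at their lowest but COL6A3 (1840 CPM, median 1834) and PDGFRA (41.42 CPM, median 26.76) above their medians. The endothelial sum was the highest at 2411 CPM, with 2 of 4 genes at their highest but ERG (119.8 CPM, median 121.0) just below its median. The part of these shifts in cell markers in the low values was not tested.

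At the other end, castrated male 5 was the highest library for 10 members (18.2%, against 7.19% of all loci) and female 4 for 9 (16.4%, against 5.45%). In female 4 none of the thiolase, oxidase, dehydrogenase or hydration loci was below its own median, and the median deviations of these roles were 0.47, 0.11, 0.36 and 0.38. Its carnitine shuttle again ran against them, with 4 of 5 loci below their own medians, both CPT2 loci among them. The thioesterases ACOT8 (-0.48), ACOT7 (-0.34) and ACOT9 (-0.21) were also below theirs in female 4, while ACOT6 (0.30) was above. Female 3 was the lowest library for 9 members (16.4%, against 3.65% of all loci), among them CRAT at 107 CPM. Female 7, lowest for 7 members (12.7%), was also lowest for 12.9% of all loci.

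Females and castrated males did not differ in any member past the threshold. Adjusted p-values were taken over all loci tested, with a threshold of 0.05. By edgeR's quasi-likelihood test with Benjamini-Hochberg adjustment 0 of 55 members passed, and 0% of the 21587 loci tested. DESeq2 and limma-trend on log2(FPKM + 0.1) also called 0 members, and 6 and 11 loci in all. At an unadjusted p under 0.05 stood 1 member, against 4.33% of all loci. No member had groups that did not overlap, which was 0% over all loci too. Log2 differences (female minus castrated male) were above 0 for 28 members and below 0 for 27, with a median of 0.01, and 50.9% of all loci were above 0. For 50 members the estimate lay within 0.2 of 0, with a median SE of 0.143. Without the libraries labelled female 10 and castrated male 10, 0 members and 18 loci passed.

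The member of smallest p was ACSL4. It ran from 97.3 through a median of 141 to 204 CPM in females and from 104 through 178 to 264 CPM in castrated males. Castrated male 1 was the highest library, and the groups overlapped over most of their range. Its log2 difference was -0.31 (SE 0.150, unadjusted p = 0.0481, adjusted p = 1.0 by edgeR). Without castrated male 1, 0 members had an unadjusted p under 0.05 by edgeR, against 3.59% of all loci. Without the libraries labelled female 10 and castrated male 10 it was also 0 members, against 4.86% of all loci. ACSM5 had the largest estimate, 1.62, with an SE of 0.948, which rests on 3 high females and 1 high castrated male (10.7 ± 15.7 CPM in the 10 females, against 3.50 ± 7.85 CPM in the 10 castrated males, mean ± SD). Without castrated male 9 it was 3.40. ACADSB stood at 0.32 (SE 0.214), or 0.16 with age in the model, and ACOT7 at -0.33 (SE 0.270), or -0.13 without castrated male 8.

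Smaller still were the differences for HADHA at 0.13 (SE 0.105), or 0.07 without the libraries labelled female 10 and castrated male 10, ACOT6, a thioesterase that is peroxisomal in mouse, at 0.19 (SE 0.114), and ACSL3 at 0.16 (SE 0.119). Below 0 stood PEX7, the import receptor for a small set of matrix enzymes, at -0.14 (SE 0.158), ACOT9 at -0.08 (SE 0.0835) and ETF1 at -0.09 (SE 0.0946). All of these had an adjusted p of 1.0 by edgeR. The sign of the whole set was not stable: with age added to the model 18 members were above 0 and 37 below, and over 27 alternatives the number above 0 ran from 18 to 33.

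No member changed with age at slaughter past the threshold either. In the edgeR model with sex, 0 of 55 members passed and 0% of the 21587 loci, and DESeq2 and limma-trend called 0 members and 5 and 1 loci. At an unadjusted p under 0.05 stood 2 members, against 5.51% of all loci. These were HADHA, with a slope of 0.23 log2 units per 10 days (SE 0.0973, unadjusted p = 0.0277, adjusted p = 0.865), and ACADSB, with 0.48 (SE 0.207, unadjusted p = 0.0311, adjusted p = 0.867).

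The slopes were mostly above 0, for 43 of 55 members with a median of 0.12, where 50.2% of all loci were above 0. By role these were all 10 dehydrogenase and electron transfer loci, 10 of 11 hydration loci, 10 of 11 peroxins, all 4 thiolases, 2 of 3 oxidases, 3 of 6 activation loci, 2 of 4 thioesterases and 2 of 5 carnitine shuttle loci. ETFB (0.26, SE 0.150), ACADL (0.29, SE 0.170) and PEX2 (0.23, SE 0.141) followed the members above. Below 0 stood CPT1A at -0.24 (SE 0.213), ACSL4 at -0.20 (SE 0.153), ACSL3 at -0.15 (SE 0.115), ACOT7 at -0.29 (SE 0.302) and CPT2 (XLOC_027370) at -0.25 (SE 0.231). Single libraries moved some of these slopes: CPT1A stood at -0.05 without female 2, ETFB at 0.12 and ACOT7 at -0.08 without castrated male 5. These signs are a count of estimates that did not pass the test, from genes measured in the same animals. Castrated male 1, the low library, was 237 days old, and without it 44 members were above 0 with a median of 0.09.

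**Figure D3:**
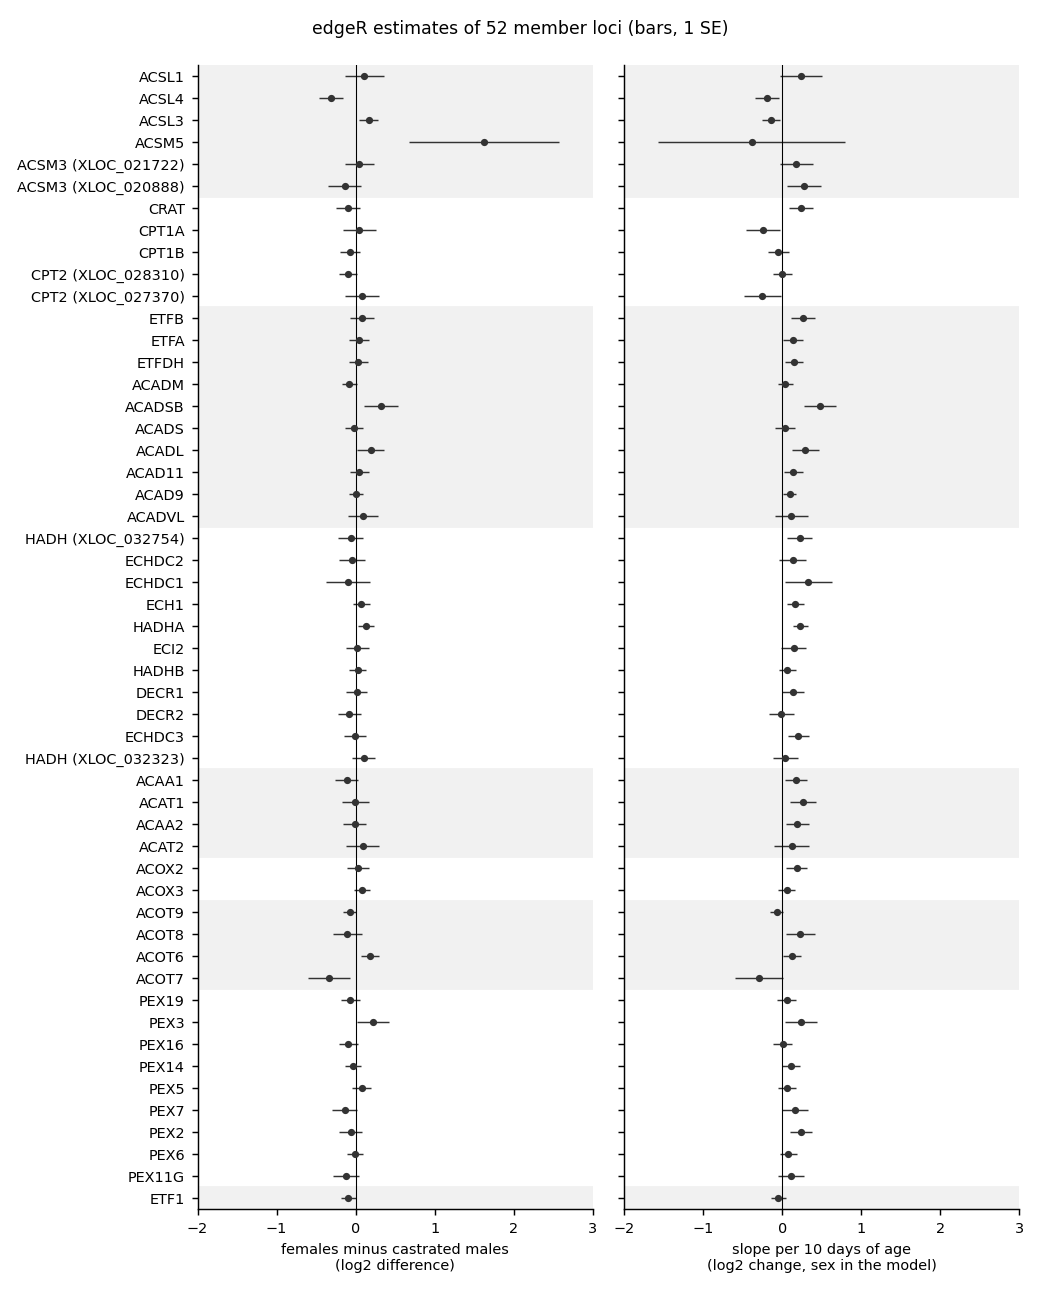
edgeR estimates for 52 of the 55 members with bars of 1 SE: left, log2 difference of females minus castrated males; right, log2 slope per 10 days of age with sex in the model (n = 20 libraries). The left column scatters on both sides of 0, 42 points of the right column lie above 0, and 0 members pass an adjusted p of 0.05 in either.

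A list of 59 other genes of fatty acid oxidation and peroxisomes held 26 with a locus of their own, all of which were tested. By edgeR 0 passed for sex and 0 for age, with 1 gene at an unadjusted p under 0.05 in each comparison. For sex this was GNPAT, which starts plasmalogen synthesis in the peroxisome, at -0.16 (SE 0.0757, adjusted p = 1.0). It was followed by AGPS, the next enzyme of that route, at -0.13 (SE 0.0735) and PDK4, a kinase that turns cells from glucose to fat oxidation, at -0.35 (SE 0.217). For age it was ANGPTL4, a secreted inhibitor of lipoprotein lipase, at -0.52 per 10 days (SE 0.243, adjusted p = 0.867). Next came OXCT1, the enzyme that lets tissues use ketone bodies, at 0.37 (SE 0.187) and ABCD2, a peroxisomal transporter of very long chains, at 0.55 (SE 0.291). Of the 26, 10 were above 0 for sex and 19 for age.

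Genes whose products work as partners were compared across the 20 animals by the correlation of log2 CPM. Pairs of members that are not partners were not compared, so an r below cannot be read as a trait of partners. Much of the pathway was low together in castrated male 1, as given above. Of 18 pairs listed, 14 had loci for both genes, and the p-values come from 100000 permutations, two-sided, with Benjamini-Hochberg adjustment over the 14 pairs. After adjustment 4 pairs passed by Pearson r and 3 by Spearman rho. ETFA and ETFDH, neighbours in the electron chain, had r = 0.763 and rho = 0.794 (permutation p = 4e-05 and 7e-05, adjusted p = 0.00028 and 0.00098). The r was 0.714 within females, 0.885 within castrated males and 0.753 without female 4 and female 9, the libraries farthest from the median. Without the libraries labelled female 10 and castrated male 10 it was 0.789 over 18 libraries, 0.803 within females and 0.881 within castrated males.

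ETFA and ETFB, the 2 subunits of the flavoprotein, had r = 0.719 and rho = 0.674 (permutation p = 0.0003 and 0.00155, adjusted p = 0.0014 and 0.00723). The r was 0.816 within females, 0.762 within castrated males and 0.707 without female 4 and female 9. Without the libraries labelled female 10 and castrated male 10 it was 0.703, with 0.821 within females and 0.722 within castrated males. HADHA and HADHB, the subunits of the trifunctional protein, which are encoded as a pair side by side in mammals, had r = 0.55 and rho = 0.538 (permutation p = 0.0121 and 0.016, adjusted p = 0.0425 and 0.0562). Without castrated male 1 the r was 0.539 with a permutation adjusted p of 0.0568, so this pair sits at the threshold. Without the libraries labelled female 10 and castrated male 10 the r was 0.487.

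ACSL1 and SCD had the highest r of the 14, 0.795, with rho = 0.735 (permutation p = 2e-05 and 0.0004, adjusted p = 0.00028 and 0.0028). The r was 0.861 within females, 0.83 within castrated males, and 0.765 without castrated male 1 and female 2. Without the libraries labelled female 10 and castrated male 10 it was 0.788, with 0.844 within females and 0.829 within castrated males. ACSL1 and PPARG, the adipocyte transcription factor, had r = 0.379 (permutation adjusted p = 0.217), which became -0.01 without castrated male 1 and female 2, so that value rested on those animals.

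The remaining 9 pairs did not pass. With CPT2 taken at its main locus XLOC_028310, r was 0.0959 for CPT1A and CPT2 and 0.165 for CPT1B and CPT2 (permutation adjusted p = 0.739 and 0.623). The minor CPT2 locus XLOC_027370 was not paired. PEX3 and PEX19, the membrane receptor and its chaperone, had r = 0.44 (permutation adjusted p = 0.15). ACADM and HADH (main locus XLOC_032754) had r = 0.172, and ACADVL, on its few counts, had r = -0.06 with HADHA.

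**Figure D4:**
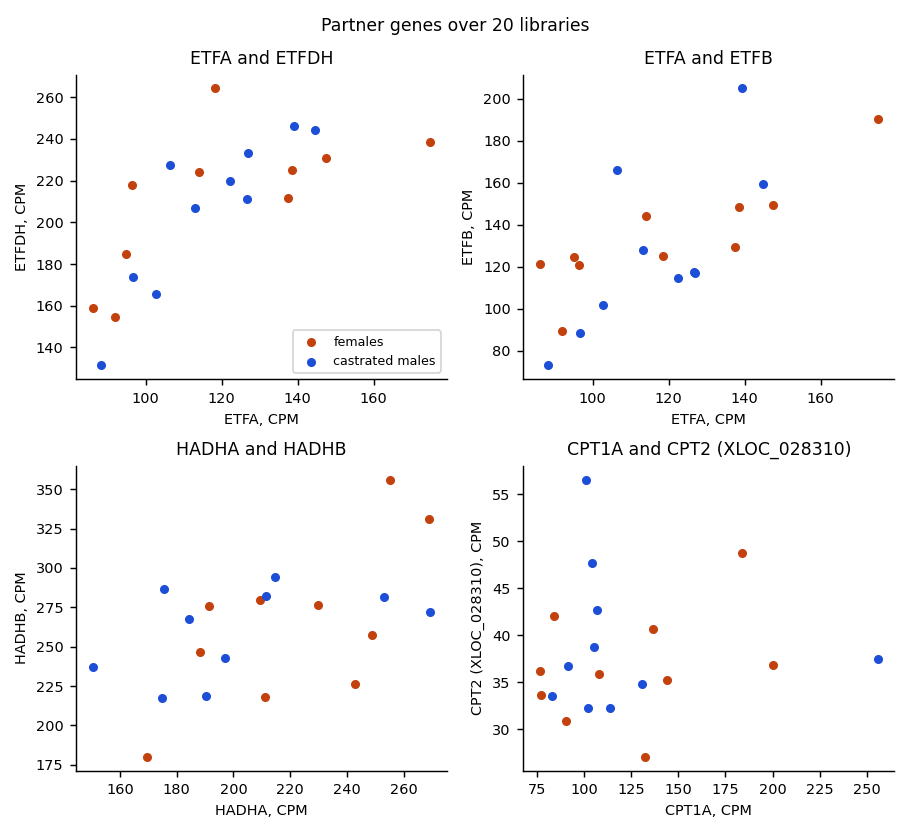
CPM of 4 partner pairs, 1 point per library, females and castrated males by colour (n = 20). ETFA rises with ETFDH (r = 0.763) and with ETFB (r = 0.719), and HADHA and HADHB are looser (r = 0.55). CPT1A and CPT2 (XLOC_028310) scatter (r = 0.0959).

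Because ACSL1 tracked SCD, the desaturase that makes oleate, a slope on log2 CPM of SCD was fitted for every locus with sex in the edgeR model. This comparison was chosen after the data were seen, and since the ACSL1 correlation prompted it, the call of ACSL1 in it is no separate result. SCD ran from 2441 CPM in female 9 through a median of 16560 to 28330 CPM in female 4, and from 253.2 CPM in castrated male 1 through a median of 15310 to 25420 CPM in castrated male 3. Members higher with SCD numbered 12 of 55 (21.8%), against 2.3% of 21586 loci, and members lower with SCD numbered 2 (3.64%), against 1.2%.

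The 12 came from 6 of the roles set by symbol prefix. They were 4 hydration and isomerisation loci (the decarboxylase ECHDC1 among them) and 3 of the 4 loci with a thiolase prefix. The rest were 2 dehydrogenase and electron transfer loci and 1 each of the activation, oxidase and peroxin loci. ECHDC2 had a slope of 0.26 per log2 unit of SCD (SE 0.0293, adjusted p = 0.000115), ECHDC1 0.41 (adjusted p = 0.000771), PEX3 0.29 (adjusted p = 0.00191) and ACSL1 0.32 (adjusted p = 0.00374). DECR1, the mitochondrial dienoyl-CoA reductase that unsaturated chains require, had 0.16 (adjusted p = 0.00682). The others were ACAT2 (0.26), ACAT1 (0.20), ACADL (0.20), ACOX2 (0.16), ETFDH (0.12), ECH1 (0.11), a dienoyl-CoA isomerase, and ACAA2 (0.15), which was just inside the threshold at an adjusted p of 0.0492.

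The 2 members lower with SCD were both outer membrane carnitine palmitoyltransferases. CPT1A had a slope of -0.25 (SE 0.0379, adjusted p = 0.00113) and CPT1B of -0.13 (SE 0.0306, adjusted p = 0.0229). Neither CPT2 locus passed in the same edgeR fit. The minor locus XLOC_027370 had -0.19 (adjusted p = 0.0569) and the main locus XLOC_028310 had -0.01 (adjusted p = 0.907). CRAT stood above 0, at 0.08 (adjusted p = 0.403).

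The number of calls depended on castrated male 1. Without it 2 members were higher with SCD, against 0.207% of 21756 loci, and 0 lower, against 0.115%, while the same edgeR fit left all 14 with an unadjusted p under 0.05. The 2 were ECHDC1 at 0.54 (SE 0.103, adjusted p = 0.0278) and ACSL1, the gene that prompted the fit, at 0.49 (SE 0.0978, adjusted p = 0.0324). All 14 slopes kept their sign, 12 of 14 were larger in size, and CPT1A stood at -0.32 (SE 0.0760, adjusted p = 0.0724). The 14 were chosen by the fit with castrated male 1, which shares the other 19 libraries. Their kept signs and small unadjusted p-values are therefore no separate evidence, and the share over all loci was not taken. With each of the other 19 libraries left out in turn, 9 to 13 members were higher, against 1.44 to 2.56% of all loci, and 2 or 3 lower, against 0.828 to 1.54%. Without the libraries labelled female 10 and castrated male 10, 14 members were higher, against 2.39% of all loci, and 2 lower, against 1.06%. The macrophage marker sum was highest in castrated male 1, the library of lowest SCD, as given above, and its part in these slopes was not tested.

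Of the 26 other pathway genes 3 were higher with SCD and 0 lower by the same fit, against 2.3% and 1.2% of all loci. These were PCCB, a subunit of propionyl-CoA carboxylase, at 0.19 (adjusted p = 0.00756), MUT, the mutase that follows it, at 0.13, and OXCT1 at 0.23. Without castrated male 1 none of the 26 passed, and the slopes were 0.25 for PCCB, 0.09 for MUT and 0.10 for OXCT1.

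**Figure D5:**
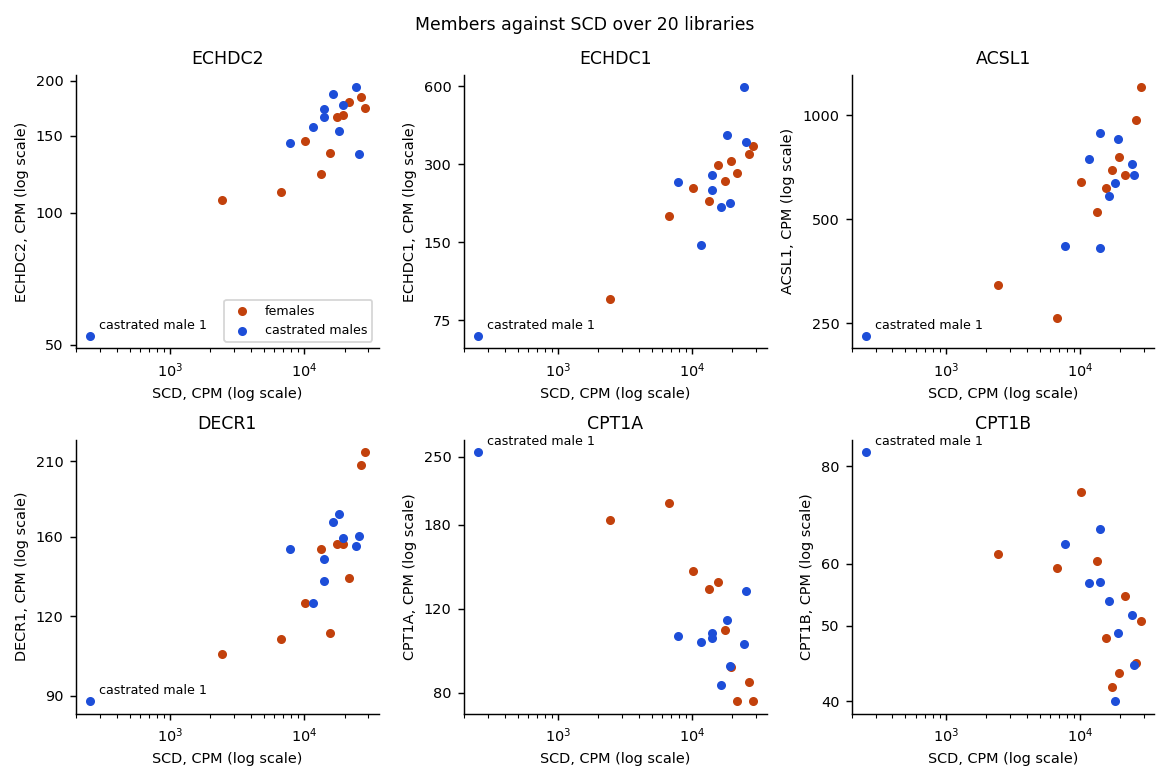
CPM of 6 members against CPM of SCD, both on log axes, 1 point per library, females and castrated males by colour (n = 20). ECHDC2, ECHDC1, ACSL1 and DECR1 are higher where SCD is higher and CPT1A and CPT1B are lower, with castrated male 1 at the left end of each panel.

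The deposited isoform table, matched to loci by summed FPKM, held 216 isoforms for the 55 members, of which 60 carried a nearest reference transcript. The median was 4 isoforms per locus, and 10 loci had 1. ACSL1 had the most, 16, and its main isoform held 29.6 ± 12.2% of its FPKM (SD, n = 20). The main isoform held under 50% in 13 members, among them CPT1A at 45.0 ± 7.67%. These shares are estimates made by the authors' assembly, with no count behind them in the files, so their precision is unknown.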

How the data were processed

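Polyadenylated RNA of backfat from 10 female and 10 castrated male pigs was sequenced, 1 library per animal. Named in the submitters' processing notes, without roles, are the build Sscrofa10.2, DESeq2, Cufflinks 2.1.1, Bowtie2 2.1.0.0 and TopHat2 2.0.8. How reads were counted, with which annotation and strand setting, and how multiple matches were treated is not given in the sources used here, so close paralogs and the 2 loci of a symbol may share reads. The authors deposited raw counts per Cufflinks locus, which were checked to be whole. FPKM, fragments scaled to transcript length and library size, were deposited for loci and for isoforms.

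Symbols came from Ensembl identifiers (12707 loci had one, and 9139 had exactly 1 symbol). Library numbers follow the order of the samples and pair no animals. Each library is a separate animal, and the labels name no batch. The counts went into quasi-likelihood fits of edgeR 4.0.16 in R 4.3.3, with TMM factors and filterByExpr by group, over all 21587 loci kept, with Benjamini-Hochberg adjustment at 0.05. The fits took sex alone, age per 10 days with sex, and log2 CPM of SCD with sex. DESeq2 1.42.0 on the same loci, limma 3.58.1 (limma-trend on log2(FPKM + 0.1)), RLE and upper-quartile factors, no filter, other covariates and libraries left out were alternatives. CPM were scaled by TMM, with a prior count of 2 for log2 CPM. Residual SD was taken over loci with a mean of at least 1 CPM. Isoforms were matched to loci where sums of isoform FPKM met the locus FPKM within 0.2% in the libraries. Python 3.11.15, numpy 2.4.6, scipy 1.17.1 and pandas 2.3.3 were used for the rest. The edgeR fits were also run on simulated counts of the same libraries, with planted changes of 1 log2 unit per unit of the variable. Those changes were larger than most estimates given above, and SCD was not simulated. The runs therefore do not bear on small differences or on the SCD slopes.

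Members were named by rule: the 2 of highest FPKM per role, the 8 of highest spread, the 5 of smallest p per direction for sex and age, the genes of the pairs and the 3 list genes of smallest p. Members called in the SCD slope, and extremes of a library or measure, were named after their values were seen. The members, the lists and this rule were chosen with earlier results of these data known. For 3 members, counted in the totals, single values and pairs are not reported here. Sequence features were not analysed here, nor were genome coordinates.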

Additional observations from a re-analysis of the deposited data

Results flagged for a closer look

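In 18 of 104 groups of 10 libraries (52 members in each labelled sex) the highest or the lowest library lay apart from the rest of its group, its gap to the nearest one being a larger part of the group's range than Dixon's critical value for 10 samples; chance gives about 1 in 20. This was 17.3% of the groups, against 8.45% over all loci tested. Castrated male 1 accounted for 7 of these (13.5% of the 52 members, against 2.75% of all loci). It was low for ECHDC2 (52.34 CPM, nearest 136.5), PEX3 (29.1 CPM, nearest 76.14), ACAA2 (111.6 CPM), ACADL (72.5 CPM), DECR1 (88.21 CPM) and ACOT6 (21.25 CPM), and high for CPT1A (255.7 CPM, nearest 130.9).

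Female 7 accounted for 3, low for PEX7 (8.133 CPM) and ACSL3 (18.02 CPM) and high for ACADVL (1.552 CPM, on few counts). Female 3 was low for CRAT (107.2 CPM) and ECHDC3 (72.64 CPM). The library labelled castrated male 10 was low for PEX16 (17.15 CPM) and PEX5 (37.7 CPM), and the library labelled female 10 was low for ACOT7 (1.3 CPM). Female 9 was low for ECHDC1 (90.77 CPM, nearest 189.7). Female 1 was high for ACOT8 (2.424 CPM). Castrated male 9 was high for ACSM5, at 25.79 CPM where the nearest castrated male had 2.247. In females, where 3 libraries were high for ACSM5, no single library lay apart.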

How the results depend on the processing

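For sex and for age the number of members called was 0 under each of 27 alternatives. The slope on SCD was less settled: without castrated male 1, 2 members were called higher and 0 lower, against 12 and 2 with it. Of all loci 0.207% and 0.115% were called without it, and 2.3% and 1.2% with it. With each of the other 19 libraries left out in turn, 9 to 13 members were called higher and 2 to 3 lower. Of all loci 1.44 to 2.56% were higher and 0.828 to 1.54% lower in those 19 fits. Over all 20 such fits the counts of members ran from 2 to 13 and from 0 to 3. ACAA2 was not called in 16 of those 19 fits. RLE or upper-quartile factors left 12 and 2. Of all loci 2.29% were higher and 1.15% lower with RLE factors, and 2.66% and 0.968% with upper-quartile factors.

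On log2(FPKM + 0.1) the correlation of CPT1B and CPT2 (XLOC_028310) was -0.0545, against 0.165 on log2 CPM. It passed on neither scale, and the cause was not tested. HADHA and HADHB had an adjusted p of 0.0568 without castrated male 1 and of 0.0413 on FPKM. For all loci the number called for sex was 18 without the libraries labelled female 10 and castrated male 10, 6 by DESeq2 and 11 by limma-trend. No paired analysis was possible because the labels give no replicate numbers that tie animals together. At the depth of these libraries ACADVL (from 16 counts) and ACSM5 (from 13 counts in its low libraries) carry the least precision.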
